A study of Mus musculus with 21 samples.

Results

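Markers of the differentiating oligodendrocyte were followed in mouse spinal cord in which Tardbp, the gene for the RNA-binding protein TDP-43, was deleted with Cnp-Cre. The set was 6 genes of 25127 in the deposited values, Gpr17, Casr, Fyn, Itpr2, Bcas1 and Enpp6, chosen by name as markers of committed precursors and newly formed oligodendrocytes. All 21 mice were C57BL/6 and carried a floxed Tardbp allele. Controls were Tardbp-fl/fl without Cre. Heterozygous mice (cHET) were Cnp-Cre; Tardbp-fl/+, and knockout mice (cKO) were Cnp-Cre; Tardbp-fl/fl. There were 4 mice per genotype, 2 female and 2 male, at postnatal day 21 (P21) and 3 per genotype at the age labelled P60. The P60 controls were 74-day-old females, whereas the P60 cHET mice (60, 63 and 65 days old) and cKO mice (61, 61 and 64 days old) were males, so sex and days of age cannot be told apart from the presence of Cre at that age. Cnp-Cre is active across the oligodendrocyte lineage and the Cre sits in the Cnp gene, while RNA was taken from the whole cord with all its other cells.

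Oligodendrocytes arise from dividing precursors that leave the cell cycle, pass through a short-lived premyelinating stage and then either wrap axons or die. Genes such as Gpr17, Bcas1 and Enpp6 are switched on in that intermediate stage and are widely used to find new oligodendrocytes in the developing and adult cord. Gpr17 and Casr encode G protein-coupled receptors, Fyn and Itpr2 encode signalling proteins inside the cell, and Bcas1 and Enpp6 encode a myelin-associated protein and a lipid-cleaving enzyme. Several of them are also made by other cells, Itpr2 by astrocytes and Fyn by neurons and immune cells among them.

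The values were normalized scaled reads per base, called level here, and read depth is not known. How far this unit removes transcript length is not given in the sources used here. The order of genes by level is therefore only a description of these values. Per library the values summed to between 26.9 M and 29.2 M at P21 and between 12.5 M and 13.8 M at P60 (M for mega). The ages were scaled separately and made with different library kits, so levels are compared within an age only. Tardbp had values of 1639 to 1880 in P21 cKO libraries, below the 2030 to 2236 of cHET libraries and the 2155 to 2415 of controls. At P60 the cKO libraries had 783 to 831, the cHET libraries 906 to 932 and the controls 828 to 937, so cKO and control overlapped. Cnp, which holds the Cre, was 76936 to 88022 in P21 controls and 44181 to 57530 in the Cre-carrying P21 libraries. Of the P60 libraries, control 1 held the most Hbb-bs (10100, against 805 to 2360 in the others), a haemoglobin chain of blood named after its values were seen, and cHET 2 the most Prx (222), a protein of peripheral myelin.

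All 6 genes passed the filter on low values at both ages, a value of at least 5 in 4 libraries at P21 or in 3 at P60. At P60 Casr reached that value in 7 of 9 libraries and the other genes in 9 of 9. The genes lie on separate chromosomes of GRCm38, Casr on chromosome 16 (36493696 to 36562141), Fyn on 10 (39368855 to 39565381), Itpr2 on 6 (146108299 to 146502223), Bcas1 on 2 (170346991 to 170427845) and Enpp6 on 8 (46986887 to 47096762). All are protein-coding. Exons of Gpr17 overlap Lims2, a gene of the opposite strand, and exons of Bcas1 overlap the antisense genes Bcas1os1 and Bcas1os2. Whether strand was used in the quantification is not given in the sources used here.

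The stretch just before an annotated transcription start is shown for Casr, Fyn and Itpr2, which rose together in cKO cord, and for Enpp6, which fell. Stretches of Gpr17 and Bcas1 are not reported here. The sequences are from RefSeq (GRCm38.p6), 5′ to 3′ on the strand of the gene, with annotated exon bases left out. Capitals mark a SOX core (ACAAAG, in Casr) and a TCF/LEF core (TCAAAG, read on the other strand in Fyn as ctttga). The stretches lie at chr16:36562142-36562384 (Casr), chr10:39369549-39369763 (Fyn), chr6:146502224-146502473 (Itpr2) and chr8:46986637-46986886 (Enpp6). That of Fyn lies within the gene span given above, before a start downstream of the outermost one.
Casr: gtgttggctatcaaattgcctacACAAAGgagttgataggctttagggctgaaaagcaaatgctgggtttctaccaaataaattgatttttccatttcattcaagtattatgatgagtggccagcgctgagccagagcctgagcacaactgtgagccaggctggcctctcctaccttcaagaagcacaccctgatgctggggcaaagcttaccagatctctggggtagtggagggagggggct
Fyn: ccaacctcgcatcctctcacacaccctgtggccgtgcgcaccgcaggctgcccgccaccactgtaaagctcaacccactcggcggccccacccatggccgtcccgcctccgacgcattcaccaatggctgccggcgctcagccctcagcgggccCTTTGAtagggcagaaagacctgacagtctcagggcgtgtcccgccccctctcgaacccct
Itpr2: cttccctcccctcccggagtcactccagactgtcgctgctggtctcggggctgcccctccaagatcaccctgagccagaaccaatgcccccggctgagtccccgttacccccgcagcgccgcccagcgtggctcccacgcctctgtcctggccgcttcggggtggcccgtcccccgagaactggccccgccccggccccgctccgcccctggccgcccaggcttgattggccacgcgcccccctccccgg
Enpp6: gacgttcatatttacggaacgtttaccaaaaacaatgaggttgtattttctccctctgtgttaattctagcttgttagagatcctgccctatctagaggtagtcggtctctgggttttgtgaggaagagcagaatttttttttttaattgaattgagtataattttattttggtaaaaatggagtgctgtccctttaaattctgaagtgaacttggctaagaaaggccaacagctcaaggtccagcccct
Of 32851 promoters, 16.5% held ACAAAG and 13.8% held TCAAAG on either strand, so each match is a common one. The letters CAGCTG (an E-box, in 13% of promoters) and TCACNCCAC (an SREBP element, in 1.05%) were not in these 4 windows. G and C made up 74.4% of the Itpr2 stretch, 67.4% of Fyn, 49.0% of Casr and 38.4% of Enpp6, beside a median of 52.4% over all promoters. None of the motifs searched was found in more than 1 of the 4 stretches.

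In cKO cord the 6 genes split. Against cHET, which also carries Cnp-Cre, both receptors and both signalling genes rose at P21 and again at P60, while Bcas1 and Enpp6 fell. At P21 the 4 rises ran from 1.28-fold (Fyn) to 2.31-fold (Casr). At P60 they ran from 1.39-fold (Fyn) to 5.82-fold (Casr), with Gpr17 at 3.96-fold. All 6 passed the limma test with Benjamini-Hochberg adjustment at both ages, where 22.6% of all genes tested passed at P21 (12.6% higher and 9.97% lower) and 25% at P60 (13.4% higher and 11.5% lower). No cKO library overlapped a cHET library for any of the 6, as for 22.6% and 39.5% of all genes. The median log2 change of the set was 0.49 at P21 and 0.70 at P60, beside -0.008 and 0.003 for all genes tested, and it hides the opposite signs within the set. After quantile normalization the share of higher among all calls went from 55.8% to 46.8% at P21 and from 53.8% to 46.1% at P60.

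**Figure D1:**
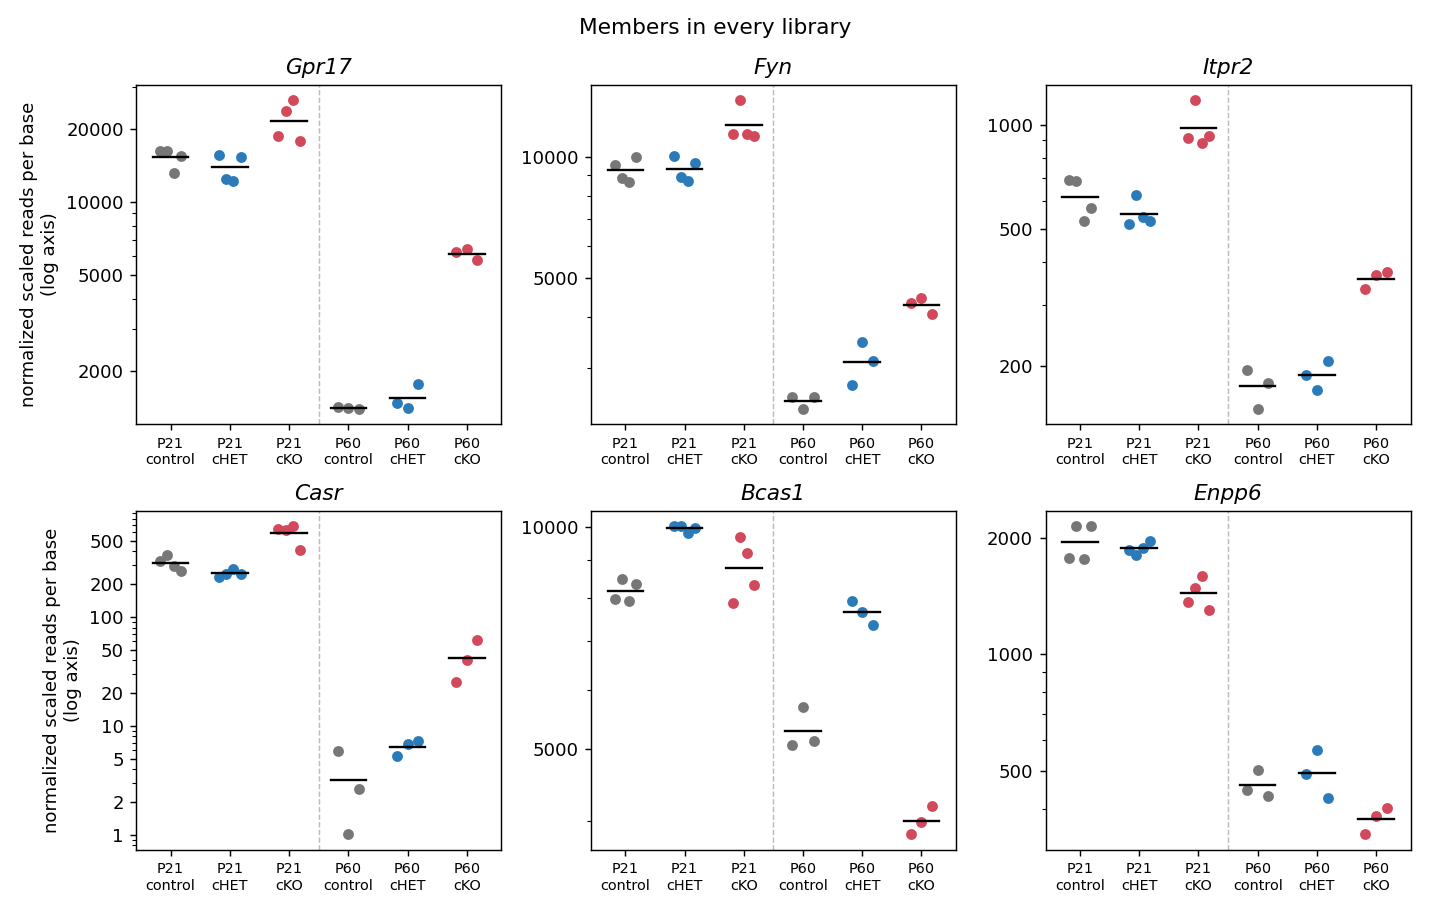
Level of each gene in every library, in normalized scaled reads per base on a log axis. Points are mice, black lines are group means and the dashed line separates the ages, which were scaled separately. The cKO points of Gpr17, Casr, Fyn and Itpr2 lie above the other genotypes at each age, and those of Enpp6 lie below.

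Gpr17 encodes a receptor that appears on committed precursors and must be lost before myelination is completed. It lies on chromosome 18 (31942997 to 31949636). At P21 the Gpr17 level was 16289, 16292, 13165 and 15537 in control libraries, 15733, 12493, 12228 and 15411 in cHET libraries and 18837, 23706, 26342 and 17887 in cKO libraries. Every cKO library was above every other library, and control and cHET overlapped. Its rise in cKO was 0.63 ± 0.12 (SE) on the log2 scale against cHET (adjusted p = 0.0019) and 0.49 ± 0.12 against control (adjusted p = 0.0089). At P60 the Gpr17 level was 1419, 1417 and 1403 in control libraries, 1474, 1417 and 1775 in cHET libraries and 6197, 6414 and 5791 in cKO libraries. The lowest P60 cKO library was thus far above the highest of the rest. The P60 rise was 1.99 ± 0.08 against cHET (adjusted p = 5e-08), rank 33 by p among 16833 genes, and 2.12 ± 0.08 against control (adjusted p = 3.3e-08). In the order of the 6 genes by level, Gpr17 had rank 1 in each P21 group and in P60 cKO cord, and rank 3 in P60 control and cHET cord. Lims2, which overlaps it, moved with it and was chosen for mention after its values were seen. Its level was 447, 468 and 655 in P21 control, cHET and cKO means and 68, 70 and 239 at P60, many times below that of Gpr17.

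Casr encodes the calcium-sensing receptor, which reads calcium outside the cell. At P21 the Casr level was 329, 373, 292 and 265 in control libraries, 233, 249, 275 and 246 in cHET libraries and 642, 623, 684 and 414 in cKO libraries. No cKO library overlapped the others, and cKO 4 was the lowest of its group. Casr rose by 1.21 ± 0.15 against cHET (adjusted p = 2.9e-05) and by 0.89 ± 0.15 against control (adjusted p = 4e-04). At P60 the Casr level was 5.84, 1.01 and 2.61 in control libraries, 5.30, 6.74 and 7.28 in cHET libraries and 25.2, 39.9 and 61.6 in cKO libraries. Casr therefore had the lowest level of the 6 at P60, and its cKO libraries were spread widely but lay above all others. The P60 changes of 2.54 ± 0.53 against cHET (adjusted p = 0.0045) and 3.70 ± 0.53 against control (adjusted p = 0.00038) carry the widest error of the set, and the added 0.5 understates the change of so low a gene. Casr was not listed in the authors' deposited table at P60.

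Fyn encodes a Src-family tyrosine kinase that acts downstream of adhesion receptors while oligodendrocytes extend processes and start to make myelin proteins. At P21 the Fyn level was 9523, 8869, 8637 and 9985 in control libraries, 10042, 8899, 8709 and 9639 in cHET libraries and 11412, 13798, 11364 and 11286 in cKO libraries. Of the cKO libraries 3 lay close together and cKO 2 stood higher, all above the rest. The rise was 0.36 ± 0.07 against cHET (adjusted p = 0.0027) and 0.37 ± 0.07 against control (adjusted p = 0.0019). At P60 the Fyn level was 2546, 2376 and 2539 in control libraries, 2722, 3474 and 3127 in cHET libraries and 4353, 4468 and 4087 in cKO libraries. The 3 genotypes formed 3 separate steps, control lowest and cKO highest. Against cHET the P60 rise was 0.48 ± 0.08 (adjusted p = 0.0015) and against control 0.79 ± 0.08 (adjusted p = 3.9e-05). The step from control to cHET, 0.32 ± 0.08, did not pass (adjusted p = 0.65).

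Itpr2 encodes a receptor for inositol trisphosphate that releases calcium from the endoplasmic reticulum. At P21 the Itpr2 level was 692, 688, 525 and 571 in control libraries, 514, 625, 540 and 525 in cHET libraries and 918, 1176, 887 and 927 in cKO libraries. The cKO libraries lay above all others, with cKO 2 highest. It rose by 0.82 ± 0.11 against cHET (adjusted p = 8.1e-05) and by 0.66 ± 0.11 against control (adjusted p = 0.00049). At P60 the Itpr2 level was 194, 150.2 and 178 in control libraries, 188, 171 and 207 in cHET libraries and 333, 367 and 374 in cKO libraries. Control and cHET overlapped and cKO stood clear of both. The P60 rise was 0.93 ± 0.11 against cHET (adjusted p = 0.00013) and 1.04 ± 0.11 against control (adjusted p = 5.3e-05).

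Bcas1 encodes a myelin-associated protein that marks premyelinating and early myelinating oligodendrocytes, and it was highest in cHET cord at both ages. At P21 the Bcas1 level was 7987, 8489, 7926 and 8360 in control libraries, 10004, 10014, 9805 and 9941 in cHET libraries and 7882, 9680, 9201 and 8336 in cKO libraries. The cHET libraries were the highest and closest together, and cKO overlapped control. The P21 change in cKO was -0.19 ± 0.06 against cHET (adjusted p = 0.039) and 0.10 ± 0.06 against control (adjusted p = 0.28). At P60 the Bcas1 level was 5059, 5692 and 5127 in control libraries, 7925, 7672 and 7354 in cHET libraries and 3832, 3986 and 4181 in cKO libraries. There the 3 genotypes were fully apart, with cHET above control and cKO below it. Bcas1 fell by 0.94 ± 0.06 in P60 cKO against cHET (adjusted p = 1.4e-06) and by 0.40 ± 0.06 against control (adjusted p = 0.00073). The P21 fall against cHET has the highest adjusted p of the set's falls, and it was lost without any 1 of the 4 cHET libraries and without cKO 1 or cKO 4 (adjusted p 0.062 to 0.11), and after quantile normalization, at -0.12 (adjusted p = 0.15).

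Enpp6 encodes an enzyme that cleaves lysophospholipid-like substrates and is switched on as oligodendrocytes start to differentiate. At P21 the Enpp6 level was 1771, 2140, 1758 and 2143 in control libraries, 1861, 1805, 1880 and 1962 in cHET libraries and 1369, 1482, 1597 and 1305 in cKO libraries. All cKO libraries lay below all others. It fell by 0.39 ± 0.08 against cHET (adjusted p = 0.0029) and by 0.44 ± 0.08 against control (adjusted p = 0.001). At P60 the Enpp6 level was 447, 502 and 432 in control libraries, 491, 567 and 425 in cHET libraries and 343, 383 and 401 in cKO libraries. The cKO libraries were again the lowest, the highest of them close to the lowest cHET library. The P60 fall against cHET was 0.39 ± 0.11 (adjusted p = 0.026). The change against control of -0.29 ± 0.11 missed the threshold (adjusted p = 0.078). The P60 call against cHET was lost without cHET 1, cHET 2, cKO 1 or cKO 2 (adjusted p 0.057 to 0.097), and without the libraries highest in blood and nerve transcripts, control 1 and cHET 2, taken out together (-0.28, adjusted p = 0.11).

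**Figure D2:**
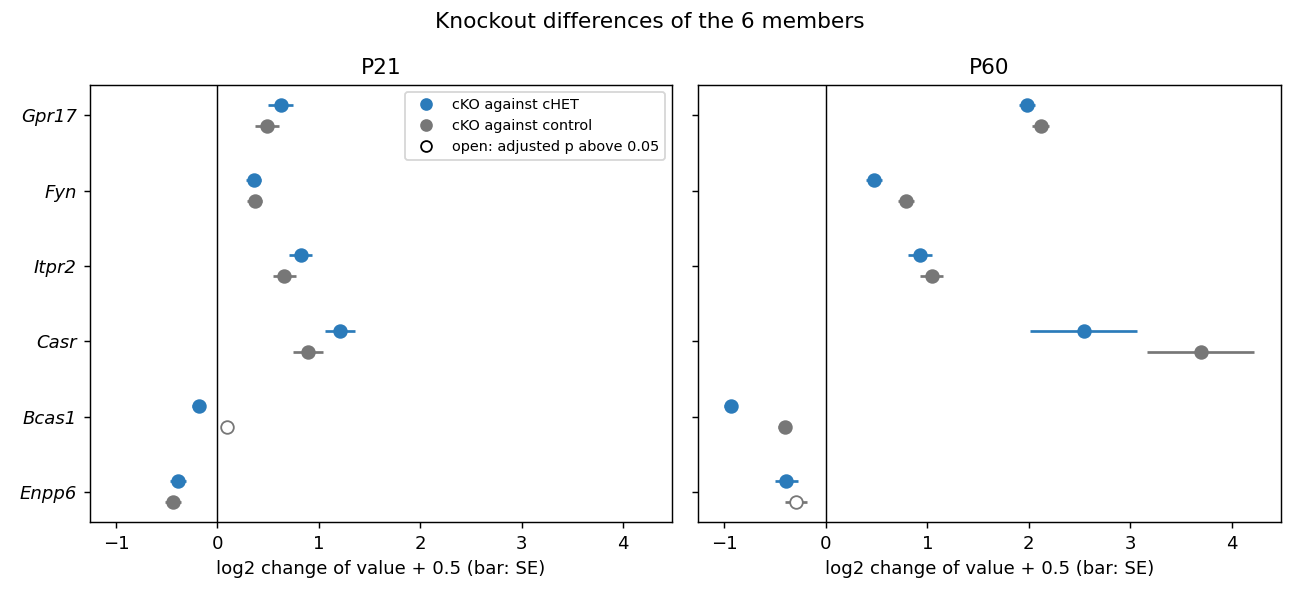
Log2 change of each gene in cKO cord against cHET (blue) and against control (grey), with its SE, at P21 (left) and P60 (right). Open points have an adjusted p above 0.05. Gpr17, Fyn, Itpr2 and Casr lie to the right of 0 at both ages, Enpp6 lies to the left, and Bcas1 lies at 0.10 against control at P21 and at -0.40 at P60.

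Against control rather than cHET, 4 of the 6 rose and 1 fell at each age, Enpp6 at P21 and Bcas1 at P60, where 26.9% of all genes tested passed at P21 (14.6% higher and 12.3% lower) and 25.9% at P60 (14.5% higher and 11.4% lower). Groups did not overlap for 5 of 6 at P21 and 6 of 6 at P60, beside 27.4% and 40.8% of all genes. Quantile normalization took the share of higher among all calls in these comparisons from 54.2% to 43.5% at P21 and from 55.8% to 45.2% at P60. The comparisons with cHET and with control share the cKO libraries, so they are not separate evidence. In the authors' deposited table, 6 of 6 had q under 0.05 for cKO against cHET at P21 and 5 of the 5 listed at P60, beside 23.8% and 25.7% of all genes with a q.

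Between cHET and control, Bcas1 had the smallest p of the 6 genes at both ages. In cHET against control at P21 none of the 6 passed, where 0.0111% of all genes tested (2 genes) did. Bcas1 was higher in all 4 cHET libraries than in any control, by 0.28 ± 0.06, with an unadjusted p of 0.000348 and an adjusted p of 0.29. Groups were apart in this way for 5.13% of all genes. In the authors' deposited table the same difference has q = 0.0067, and 0.193% of all genes with a q were under 0.05. At P60 Bcas1 was the only 1 of the 6 to pass, higher in cHET by 0.53 ± 0.06 (adjusted p = 0.026), rank 3 by p among 16833 genes, where 0.0178% of all genes tested (3 genes) passed. This call was lost when cHET 1, cHET 2, cHET 3, control 1, control 3, cKO 1 or cKO 2 was left out (adjusted p 0.056 to 0.17), and when control 1 and cHET 2 were left out together (0.50, adjusted p = 0.33). Bcas1 and Fyn were the genes of the set whose P60 cHET and control libraries did not overlap, as for 10.2% of all genes.

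Whether the knockout difference itself changed between P21 and P60 was tested as an interaction in a fit of all 6 groups, in which 3.2% of genes tested passed for cKO against cHET. The Gpr17 difference was larger at P60 by 1.36 ± 0.17 on the log2 scale (adjusted p = 4.4e-05). The Bcas1 difference was more negative at P60 by 0.75 ± 0.09 (adjusted p = 1.9e-05). For Casr the change of 1.33 ± 0.47 did not pass (adjusted p = 0.16). Enpp6 (0.00 ± 0.14, adjusted p = 1), Itpr2 (0.11 ± 0.17, adjusted p = 0.85) and Fyn (0.12 ± 0.12, adjusted p = 0.73) did not pass either. Against control, where 4.48% of genes tested passed, the interaction was 1.63 ± 0.17 for Gpr17, -0.50 ± 0.09 for Bcas1, 2.80 ± 0.47 for Casr (adjusted p = 0.00085) and 0.42 ± 0.12 for Fyn (adjusted p = 0.04). The Fyn call was lost when P21 control 1, 2 or 4, P21 cKO 1, 3 or 4, P60 control 1, 2 or 3, or P60 cKO 1 or 2 was left out (adjusted p 0.05 to 0.11). Age goes with the library kit, so the kit's part in these differences cannot be told apart.

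Because the genes moved in opposite directions, their ratios within a library separated the genotypes. These ratios were chosen after the levels were seen and carry no test. Gpr17 per Bcas1 was 2.15 to 2.86 in P21 cKO libraries, 1.25 to 1.57 in cHET and 1.66 to 2.04 in controls. The P60 ratio was 1.38 to 1.62 in cKO libraries, 0.185 to 0.241 in cHET libraries and 0.249 to 0.28 in controls. In each age the 3 genotypes did not overlap, with cKO highest and cHET lowest. Gpr17 per Enpp6 was 13.7 to 16.5 in P21 cKO against 6.5 to 9.2 in the other P21 libraries, and 14.4 to 18.1 in P60 cKO against 2.5 to 4.18 in the other P60 libraries. The cKO libraries again lay apart from the rest of their age.

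**Figure D3:**
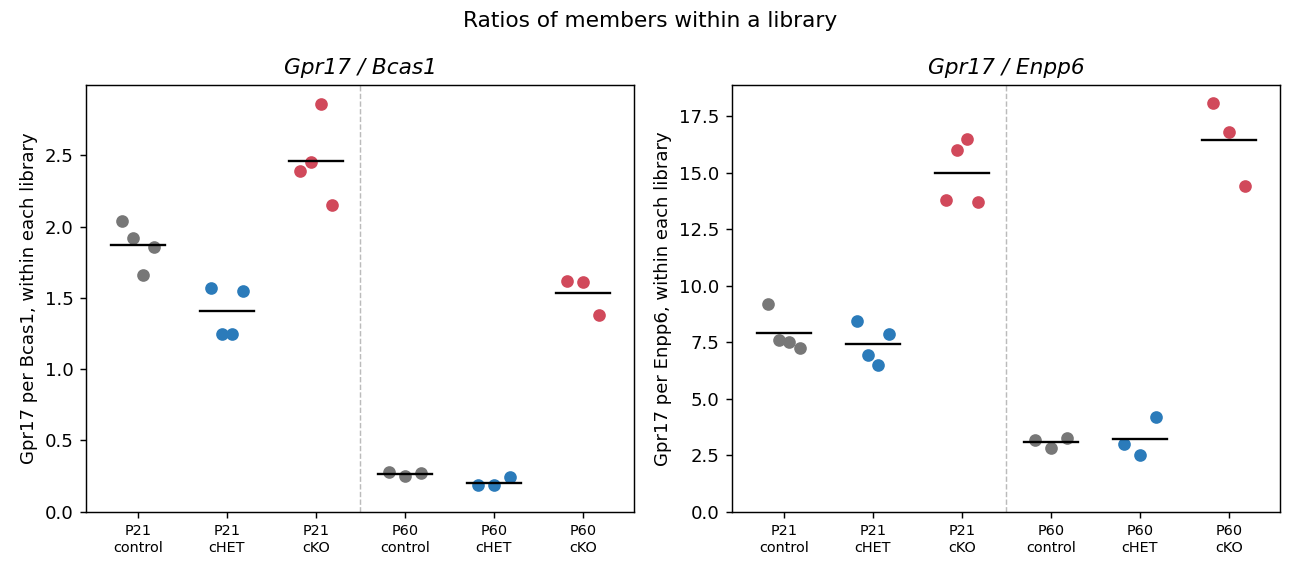
Ratio of Gpr17 to Bcas1 (left) and to Enpp6 (right) within each library, from values in normalized scaled reads per base. Points are mice, black lines are group means and the dashed line separates the ages. The cKO libraries are the highest of their age in both panels.

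Sox10, a transcription factor of the whole lineage that was named after its values were seen, gave a yardstick for how much oligodendrocyte RNA a library held, although in bulk tissue fewer cells of a type and less RNA per cell cannot be told apart. Sox10 itself rose in cKO against cHET at P60 by 0.62 ± 0.06 (adjusted p = 1.6e-05), and at P21 its change was 0.06 (adjusted p = 0.70). Of the other lineage-wide factors at P60, Olig1 (0.71) and Zfp488 (1.24) also rose, while Nkx6-2 (-0.80) and Myrf (-0.45) fell. The ratios below therefore hold for Sox10 as the divisor, and other divisors were not tried. Per Sox10, P60 Gpr17 was 1.51 to 1.72 in cKO against 0.578 to 0.721 in cHET, and Casr was 0.00695 to 0.0161 against 0.00208 to 0.00296. P60 Itpr2 per Sox10 was 0.0918 to 0.0983 in cKO and 0.0735 to 0.084 in cHET. These 3 genes stayed apart from cHET on this scale at P60. P60 Fyn per Sox10 was 1.07 to 1.2 in cKO and 1.07 to 1.53 in cHET, which overlap, and its own rise of 0.48 stands beside the 0.62 of Sox10. Bcas1 per Sox10 was 1.06 to 1.09 in P60 cKO against 2.99 to 3.37 in cHET, and Enpp6 per Sox10 was 0.0946 to 0.105 against 0.173 to 0.249. These gaps are wider than on the unscaled values because the divisor itself rose. At P21 the picture was less clear. Gpr17 per Sox10 was 1.33 to 2.3 in P21 cKO libraries, and it overlapped both cHET (1.1 to 1.37) and control (1.36 to 1.58). Fyn per Sox10 (0.841 to 1.24 in P21 cKO, 0.764 to 0.874 in cHET) and Bcas1 per Sox10 (0.621 to 0.871 and 0.788 to 0.902) overlapped as well. Casr (0.0308 to 0.0597 and 0.0195 to 0.0254), Itpr2 (0.0691 to 0.106 and 0.0416 to 0.055) and Enpp6 (0.0973 to 0.139 and 0.155 to 0.173) did not overlap between P21 cKO and cHET. Casr per Sox10 in P21 cKO did overlap control (0.0232 to 0.0328). Itpr2 (control 0.0501 to 0.0674) and Enpp6 (control 0.172 to 0.197) did not.

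Neighbouring stages of the lineage were read from lists of other genes. Of 15 other markers of committed precursors and newly formed oligodendrocytes, 9 rose and 0 fell at P21 in cKO against cHET (median 0.40), and 13 rose and 0 fell at P60 (median 1.002). Rras2, a small GTPase, rose by 0.55 ± 0.11 at P21 and 1.83 ± 0.13 at P60. Mpzl1, a surface glycoprotein, rose by 0.89 ± 0.10 and 1.31 ± 0.09, Sirt2, a deacetylase of the lineage, by 0.56 ± 0.08 and 0.77 ± 0.06, and Tmem2 by 1.05 ± 0.11 and 1.19 ± 0.07. Most of these markers therefore moved in the direction of Gpr17, and Bcas1 and Enpp6 did not. Others, named after their values were seen, lay below 0 without passing. These were Nkx2-2 at both ages (-0.24 and -0.26), Bmp4 at P21 (-0.03) and Kif19a at P60 (-0.12). Of 10 precursor markers, 5 rose and 0 fell at P21 (median 0.38), and 8 rose and 1 fell at P60 (median 0.63). Cspg4, the NG2 proteoglycan of precursors, rose by 1.29 ± 0.05 and 1.41 ± 0.09. Matn4, Susd5 and C1ql1 rose at P21 by 0.68, 0.72 and 0.75.

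Of 14 mature oligodendrocyte markers, 2 rose and 11 fell at P21 (median -0.72), and the same counts held at P60 (median -0.79). Gjb1, a gap junction protein, fell by 1.45 ± 0.07 at P21 and fell by 2.43 ± 0.12 at P60. Hapln2, a matrix protein of nodes of Ranvier, fell by 1.21 ± 0.06 and fell by 3.06 ± 0.11, and Klk6, a protease, fell by 3.78 ± 0.20 and fell by 4.09 ± 0.20. Apod fell by 1.14 ± 0.07 at P21 and was at -0.01 at P60 (adjusted p = 0.97). Those that rose at both ages were Opalin (0.33 and 1.51) and Cldn11 (0.24 and 0.78), named after their values were seen. Against cHET, Bcas1 and Enpp6 thus had the sign of most mature markers. Against control at P21 Bcas1 was at 0.10 (adjusted p = 0.28), while 9 of the 14 mature markers fell and 2 rose. Among 5 lineage-wide factors, 3 rose and 0 fell at P21, and 3 rose and 2 fell at P60, with Zfp488 at 0.82 ± 0.07 and 1.24 ± 0.07.

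**Figure D4:**
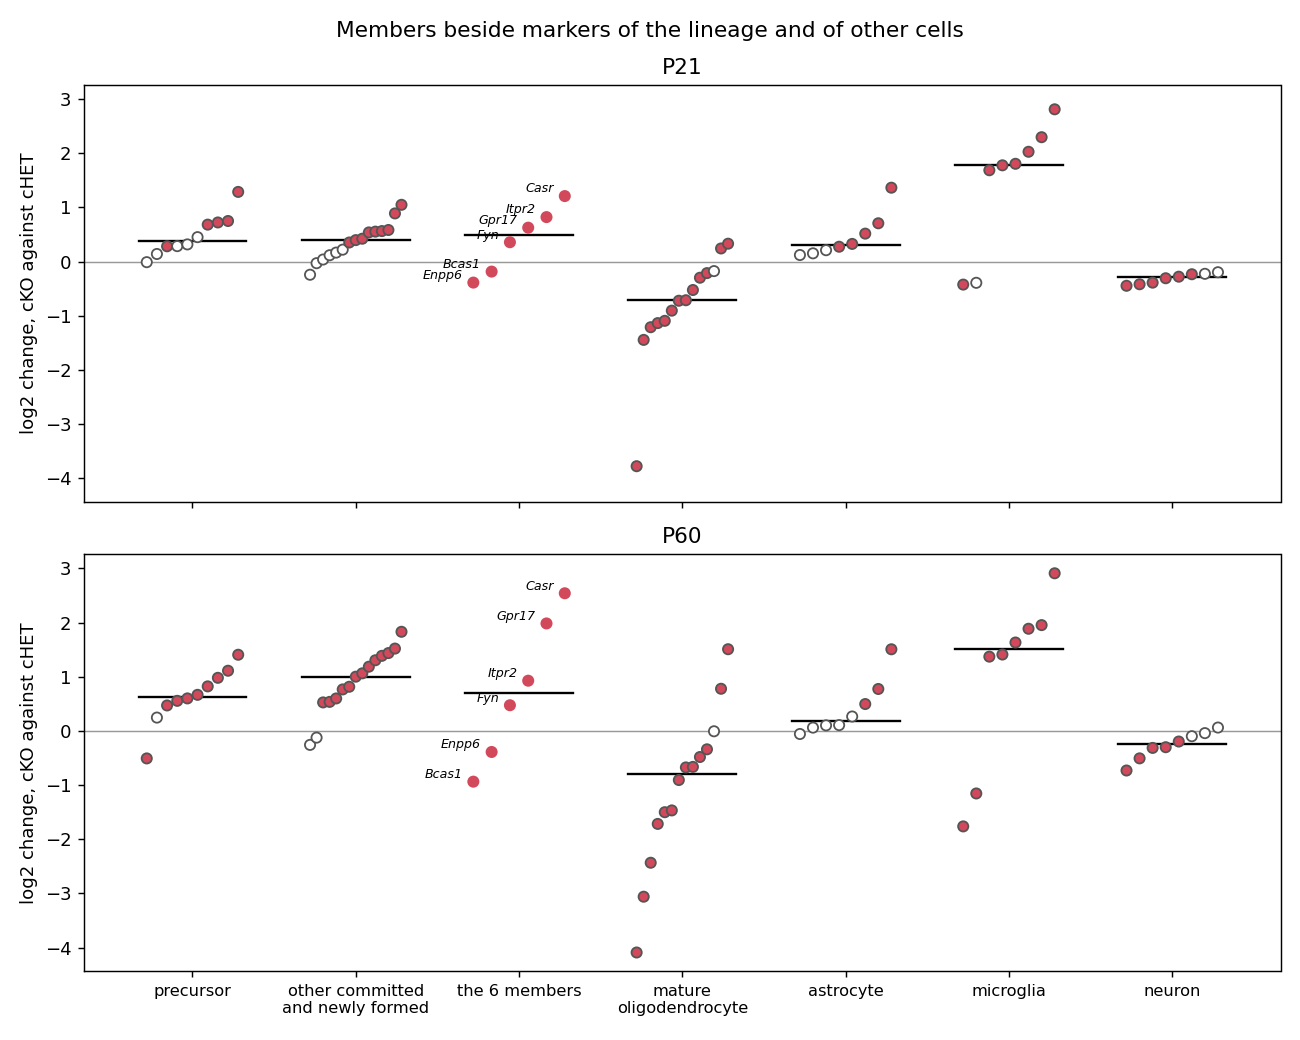
Log2 change of cKO against cHET for each gene of each list, at P21 (top) and P60 (bottom). Filled points have an adjusted p under 0.05, black lines are list medians, and the 6 genes are named. Gpr17, Casr, Itpr2 and Fyn lie with most of the precursor and newly formed markers above 0, and Bcas1 and Enpp6 lie with most of the mature markers below 0.

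Close relatives of the 6 genes went their own ways. Of 16 tested relatives, 5 rose and 5 fell at P21, and 5 rose and 6 fell at P60. The other inositol trisphosphate receptors, named after their values were seen, did not pass as higher: Itpr1 was at -0.15 ± 0.16 (adjusted p = 0.56) at P21 and fell by 0.40 ± 0.10 at P60 (adjusted p = 0.015), and Itpr3 was at -0.13 ± 0.17 and -0.13 ± 0.08 (adjusted p = 0.63 and 0.29). Among Src-family kinases, those of myeloid cells also rose at both ages, Lyn by 1.65 ± 0.12 and 1.65 ± 0.16 and Fgr by 2.97 ± 0.28 and 3.14 ± 0.27. Enpp4, an ectoenzyme of the Enpp6 family, fell by 0.81 ± 0.06 and fell by 1.13 ± 0.07, and Enpp1, named after its values were seen, fell by 0.99 ± 0.17 and fell by 1.57 ± 0.11. Of 12 genes that act with Fyn in oligodendrocytes, 3 rose and 1 fell at P21, and 2 rose and 3 fell at P60. Itgb1, an adhesion receptor subunit, rose by 0.44 ± 0.07 and 1.03 ± 0.06, Itga6 rose by 0.45 ± 0.09 and 0.63 ± 0.09, and Mapt, the tau protein that Fyn binds, fell by 0.33 at both ages. Lama2, a laminin chain, was at 0.46 ± 0.12 at P21, where it passed (adjusted p = 0.012), and at -0.28 ± 0.15 at P60, where it did not (adjusted p = 0.22).

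Markers of other cells moved with the same comparison. Of 8 microglial markers, 6 rose and 1 fell at P21 and 6 rose and 2 fell at P60, and their summed level was 36730 to 51340 in P21 cKO against 11530 to 13290 in cHET, and 16300 to 21000 in P60 cKO against 5823 to 6293. Of 8 astrocyte markers, 5 rose and 0 fell at P21 and 3 rose and 0 fell at P60, with sums of 322300 to 370300 in P21 cKO against 164100 to 173200 in cHET, and 136300 to 163500 in P60 cKO against 70580 to 77470. Most of each cKO sum was Gfap, with means of 249500 in P21 cKO against 96850 in cHET, and 100300 against 35180 at P60. The median log2 change of the 8 astrocyte markers was 0.30 at P21 and 0.19 at P60. Of 8 neuronal markers, 0 rose and 6 fell at P21 and 0 rose and 5 fell at P60, with sums of 231900 to 268900 in P21 cKO against 279900 to 297500 in cHET, and 132800 to 154400 against 144600 to 153500 at P60. No marker of these lists was at 0 throughout a group. Microglia express Fyn relatives, and astrocytes express Itpr2. The part of these cells in the Itpr2 and Fyn rises was not tested.

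The genes most like each of the 6 were found by Pearson's r over the 21 libraries, with the mean of each age removed from log2 values, among 16567 genes. The libraries fall into the same genotype groups for every gene, so r mostly follows the genotype pattern and is given as a description. Gpr17 was most like Rras2 and Itgb1 (0.986 each), Sox4 (0.976), Rnf122 (0.975) and Col27a1 (0.967). Casr was most like Cd38 (0.950), Rab8b (0.930), Lix1l (0.923), Kirrel3 (0.921) and Itgb1 (0.916). Itgb1 was thus near both receptors. Fyn was most like Lox (0.939), Kank1 (0.937), Il23a (0.936) and Slc1a3 (0.934), and Itpr2 most like Syk (0.963), Bcl3 (0.957), Mcoln3 (0.956), Arhgef7 (0.953) and Tmem2 (0.952). Syk is a kinase of immune cells, and Slc1a3 is an astrocyte transporter. Bcas1 was most like Cldn14 (0.908), Pip4k2a (0.892), Sept8 (0.878), Psat1 (0.874) and Map7 (0.872), and Enpp6 most like Osbpl1a (0.892), Secisbp2l (0.888), Gsn (0.884), Spag9 (0.883) and Acsl1 (0.883). Within the set, with the mean of each group removed instead, the highest r was that of Bcas1 with Enpp6 (0.67, n = 21), followed by Casr with Itpr2 (0.53).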

How the data were processed

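Whole spinal cord RNA of 21 mice was measured, grouped by the genotype and age in the labels. The signal deposited by the authors gives each gene in normalized scaled reads per base. Per the submitters' processing notes it was made with kallisto 0.43.0 and sleuth 0.28.1 on GRCm38, and the role of each tool is not given in the sources used here. The authors' deposited tables hold effects, their standard errors, means, and the authors' own p-value and q-value, per the file headers. Other columns were not used. For 6 genes at P21 and 5 at P60 the natural log of the per-library values + 0.5 gave the authors' mean within 1e-06. The effects were therefore read as natural log units of value + 0.5 and divided by the natural log of 2.

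The log2 of value + 0.5 was tested for genes with at least 5 in 4 or more P21 libraries or 3 or more P60 libraries. A limma 3.58.1 fit (R 4.3.3) per age held its 3 genotypes, with 2-sided moderated tests and Benjamini-Hochberg adjustment over all genes tested, at a threshold of 0.05. Every adjusted p is from limma, the SE is that of the log2 change, and replicates are separate mice by their labels. The age difference is an interaction in a fit of all 6 groups. The fits were also run on simulated data with independent noise for each gene, and the outcome is not reported here. Positions are from GENCODE M21 and promoters from RefSeq.

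The 6 genes and all lists were chosen with earlier results of these data known. Named genes are the 6, up to 4 genes of each other list with the smallest p for cKO against cHET at P21, the 5 genes most like each, Tardbp and Cnp, and some genes that this rule selects are not reported here. Others are marked as named after their values were seen. Alternatives tried were pseudocounts of 0.05 and 5, no filter, a filter on the mean (at least 50), quantile normalization and median-of-ratios scaling. Further alternatives were only the 2 groups compared, all 6 groups in 1 fit, array weights, robust moderation, sex as a covariate at P21, the authors' test, and removal of each library in turn. Leaving out both P60 control 1 and P60 cHET 2 was chosen after seeing the data.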

Additional observations from a re-analysis of the deposited data

Results flagged for a closer look

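In groups of 4 libraries, a value that stood far from the other 3 was sought by Dixon's ratio, the gap to the nearest library over the whole range. It was passed by 2 values, both in P21 cKO replicate 2. Itpr2 had a ratio of 0.861 there (level 1176), and Fyn had a ratio of 0.95 (level 13798). Among the 18 groups examined these were the only values to pass, and chance alone passes about 5% of groups. Without that library Itpr2 still rose against cHET, by 0.73 (adjusted p = 0.00027), as did Fyn, by 0.29 (adjusted p = 0.0078).

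The knockout difference changed between the ages, by the limma interaction test, for Gpr17 (1.36 against cHET and 1.63 against control) and for Bcas1 (-0.75 and -0.50). Against control it also changed for Casr (2.80) and Fyn (0.42). The P60 controls differ from the other P60 mice in sex and days of age, which was not so at P21.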

How the results depend on the processing

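Over 48 results and 34 alternatives, 1102 of 1162 values kept direction and side of the threshold, and 39 results did so throughout. The count of the 6 genes that passed moved to or from 0 only for cHET against control. At P21 it went from 0 to 1 by the authors' test. At P60 it went from 1 to 0 with no filter, with only the 2 groups compared, and without control 1 and cHET 2 together. It ran from 0 to 1 at P60 when 1 library was left out. Other counts changed where Bcas1, Enpp6 or Fyn crossed the threshold, as given for each gene, or where Casr gave no value. Values that changed sign all lay near 0: Fyn in cHET against control at P21 was -0.024 after quantile normalization and ran from -0.026 to 0.048 without 1 library. Enpp6 in cHET against control at P60 was -0.029 without control 1 and cHET 2 and ran from -0.009 to 0.20 without 1 library. The Enpp6 age difference against cHET was 0.003 with a pseudocount of 5, 0.104 without control 1 and cHET 2, and ran from -0.104 to 0.104 without 1 library. The causes were not tested.

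Enpp6 in cKO against control at P60 passed after quantile normalization (adjusted p = 0.044), with array weights (0.049), with only the 2 groups compared (0.046), in the fit of all 6 groups (0.042) and without cHET 3 (0.043). Bcas1 in cKO against cHET at P21 also missed with no filter (0.058), array weights (0.10) and only the 2 groups compared (0.082). The Fyn age difference against control was lost in 14 fits (adjusted p up to 0.11). Casr at P60 gave no value with a mean of at least 50. Quantile normalization moved the share of higher calls against control from 54.2% to 43.5% at P21 and from 55.8% to 45.2% at P60, and against cHET from 55.8% to 46.8% and from 53.8% to 46.1%. No paired analysis was possible because the labels give mouse numbers and no replicate number shared between groups. The depth behind low values such as Casr at P60 is unknown.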

Other observations

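Both sexes were present in every genotype at P21 only, with 2 mice of each, and the difference was not tested. Gpr17 had a mean level of 25020 in male and 18360 in female cKO mice. In cHET mice the means were 12360 in males and 15570 in females, and in controls 14730 and 15910. Males were thus higher in cKO cord and lower in the other genotypes. Bcas1 had means of 9441 in male and 8109 in female cKO mice, beside 9909 and 9972 in cHET mice and 8208 and 8173 in controls. Fyn had means of 12580 in male and 11350 in female cKO mice, beside 8804 and 9840 in cHET mice. All 6 genes were higher in male than in female cKO means, with Casr at 653.5 and 528, Itpr2 at 1032 and 922.6, and Enpp6 at 1539 and 1337. For Itpr2 and Fyn this rested on male cKO 2. Male cKO 3 had Itpr2 at 887, below both females (918 and 927), and Fyn at 11364, between them (11412 and 11286). Casr means were also higher in males than females in controls (332.8 and 297.1) and cHET mice (262.2 and 239.8). Itpr2 means were higher in cHET males (582.3 and 519.5) and lower in control males (606.4 and 631.9).

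TDP-43 binds RNA rich in UG repeats, and the hexamer TGTGTG was counted in the longest coding transcript of each gene, without introns. Bcas1 held 1.02 per kb (3 in all) and Itpr2 0.856 (10 in all), above the median of 0.514 over 16391 tested genes. Casr held 0.441, Enpp6 0.402, Fyn 0.281 and Gpr17 0.192. Of all these genes, 73.4% held the hexamer at least once. The higher densities were those of Bcas1, which had the largest fall at P60, and Itpr2, which rose. Repeats in introns were not counted, and a link of density with direction was not tested.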
